A study of Mus musculus with 4 samples.

Results

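The genes described here encode channels that let calcium into the cytosol or open on mechanical load and, for Stim1, a sensor that opens such channels. They were chosen by symbol: Trpc1, Trpc4, Trpc6, Trpv4, Piezo1, Piezo2, Stim1, Cacna1c and Ryr2, 9 of the 32285 genes in the count tables. Their transcripts were counted by single-nucleus RNA sequencing (snRNA-seq) of whole lungs from 2 wild-type (WT) mice of the strain C57/BL6J and 2 VEcad-TRF2DN-Tg mice (Tg), all aged 8 to 9 weeks. Tg mice express a dominant-negative form of TRF2, a protein that caps telomeres, from the VE-cadherin promoter, which drives the transgene in endothelial cells (ECs). Per the study's methods, lungs of both genotypes came from male mice kept in 10% oxygen for 3 weeks, a model of pulmonary hypertension, so normoxic lungs are not part of the comparison. The question put to these genes was in which lung cells each was detected and whether its level differed between genotypes.

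Calcium is low in the cytosol and high outside the cell and in the endoplasmic reticulum, and both sources are opened by these proteins. TRPC channels pass calcium and sodium after receptor stimulation, with TRPC6 opened by diacylglycerol, TRPV4 opens on heat, swelling and lipid mediators, and PIEZO proteins open when the membrane is stretched. STIM1 senses empty stores and opens ORAI channels at the plasma membrane, Cacna1c encodes the pore of the L-type voltage-gated channel, and Ryr2 encodes the ryanodine receptor that releases calcium from the stores of heart muscle. In the pulmonary circulation such channels are known for smooth muscle contraction under hypoxia and for the response of endothelium to flow.

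Levels are given as CPM, the UMIs of a gene after the UMIs of a class of nuclei in a mouse were scaled to a total of 1000000, where a UMI is a molecular tag that counts a transcript once. Barcodes with 1500 or more UMIs were grouped by marker genes into 22 classes, and 17 of these held at least 20 nuclei in every mouse. WT lungs yielded 10283 and 11690 named nuclei, and Tg lungs yielded 17917 and 23726, with 1453, 2968, 6138 and 13480 more nuclei in clusters left unnamed and not used. Another 14932 and 23418 barcodes of the WT libraries were not distinguished from empty droplets, against 543 and 5671 of the Tg libraries, so the libraries of the genotypes stood apart. The UMIs in barcodes with 1500 or more numbered 68229455 to 142050879 per library. Because free RNA enters every droplet, each level was set beside that of barcodes with 300 to 800 UMIs of the same mouse, called empty droplets here. The share of free RNA estimated in the 17 classes ran from 0.229 to 0.640. Between 176 and 475 barcodes were shared by any pair of libraries. Mouse Terf2, which the transgene's product competes with, stood at 56.6 and 57.2 CPM in blood vascular ECs of WT mice and at 42.7 and 48.5 CPM in those of Tg mice. The sources used here do not say whether transgene reads are counted as Terf2, so this does not check the genotype.

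The heat map of class means sets out the pattern. Of the members, 3 had their highest level in pericytes (Trpc6, Cacna1c and Trpc1), 2 in venous ECs (Piezo1 and Trpv4), 2 in ciliated cells (Stim1 and Ryr2), 1 in aerocyte ECs (Piezo2) and 1 in mesothelial cells (Trpc4), among the 17 classes. Aerocytes are the large capillary ECs of the alveolar gas exchange surface, and mesothelial cells line the lung's outer face.

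**Figure D1:**
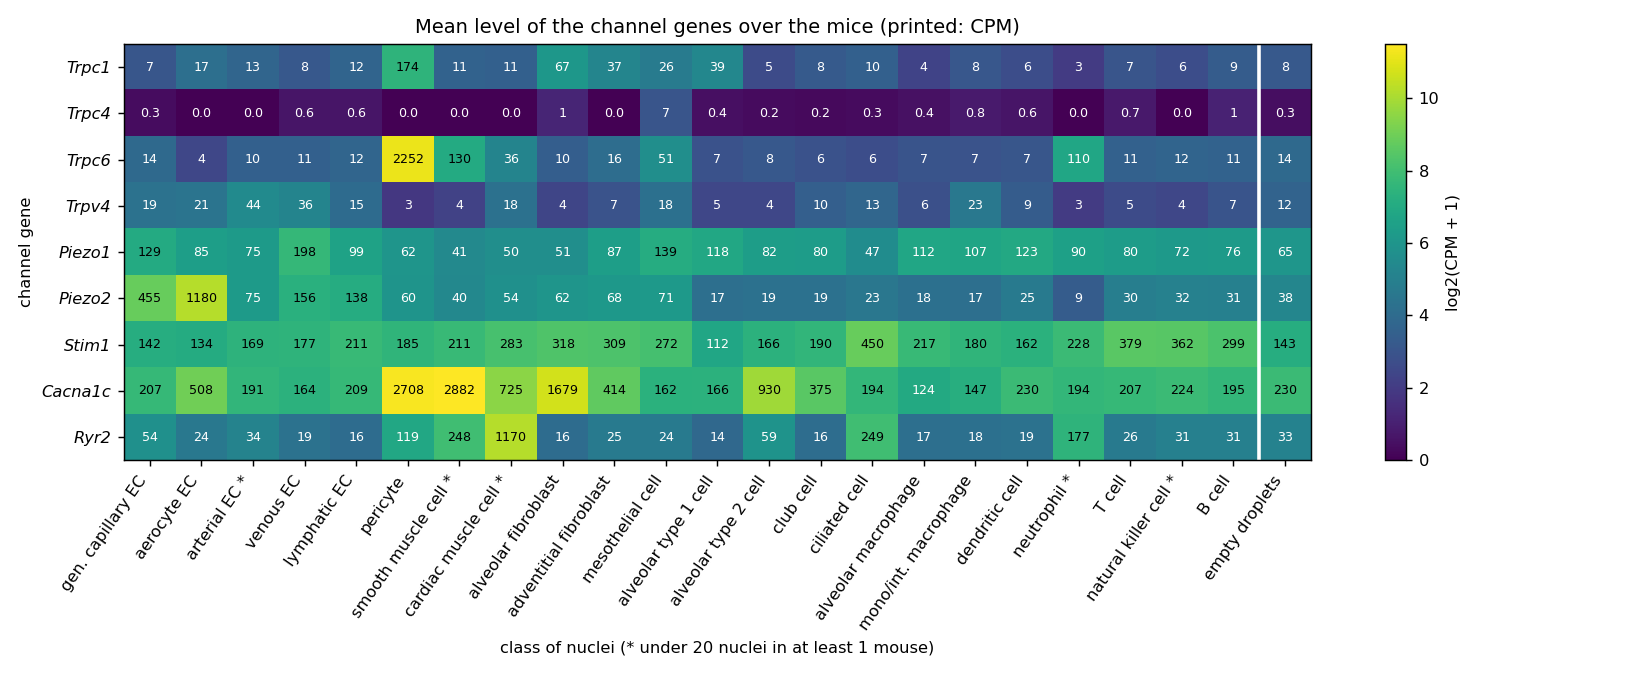
Mean CPM over the 4 mice of each member (vertical axis) in each class of nuclei and in empty droplets (horizontal axis). Colour is on a log2(CPM + 1) scale and the CPM is printed in each cell. Trpc6 stood at 2252 CPM in pericytes and Piezo2 at 1180 CPM in aerocyte ECs, while Trpc4 reached no more than 7.11 CPM, in mesothelial cells.

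Trpc6, on chromosome 9 at 8544142 to 8680741 of GRCm38, plus strand, had the members' widest gap between first and second of the 17 classes. Its level in pericytes was 2059 and 2504 CPM in WT mice and 2365 and 2078 CPM in Tg mice, from 1916 UMIs in all. Empty droplets held 24.5, 11.5, 10.3 and 9.75 CPM in the same order of mice. The pericyte values of both genotypes interleaved, with a mean of 2252 ± 219 CPM (SD, n = 4), 161 times that of empty droplets. The next of the 17 classes, mesothelial cells, averaged 51.0 CPM, 44.1 times less. Its range from 30.7 to 96.3 CPM did not reach the pericytes. Smooth muscle nuclei, too few to be ranked, are described below. In 13 of the 17 classes the mean was below that of empty droplets.

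The pericyte class itself rested on 52 and 49 nuclei in WT mice and 61 and 102 in Tg mice. Of its 10 markers, 9 were detected in all mice, summing to 3069 to 3875 CPM against 69.3 to 128.5 CPM in empty droplets. The 9 smooth muscle markers summed to 211 to 359 CPM in these nuclei, against 18.6 to 42.9 CPM in empty droplets. Of these markers 4 exceeded empty droplets in all mice, and Cnn1 was at 0. Whether smooth muscle nuclei are part of the class was not tested. Of 11 cardiac muscle markers, 5 were at 0. Smooth muscle nuclei were too few for a test, at 20, 2, 4 and 9 in the 4 mice. Trpc6 was nonetheless counted there at 317 CPM (21 UMIs), 0, 79.5 (1 UMI) and 123 CPM (3 UMIs) in WT replicates 1 and 2 and Tg replicates 1 and 2. The count of 0 allows a level of up to 752 CPM, so this value sets no useful limit.

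Trpc1, whose product joins other TRPC subunits in mixed channels, was spread over more classes. Pericytes held 166 and 189 CPM in WT mice and 176 and 165 CPM in Tg mice, which interleaved. Alveolar fibroblasts, the lipid-storing fibroblasts of the alveolar wall, came next at 71.8, 58.1, 68.0 and 68.9 CPM, 2.61 times lower on average and without overlap with pericytes. Alveolar type 1 cells averaged 39.0 CPM and adventitial fibroblasts 36.6 CPM, and these neighbours overlapped over the mice. Empty droplets ranged from 3.59 to 13.5 CPM, and 6 of 17 classes lay above them in all 4 mice. The plot of levels in each mouse shows Trpc6 and Trpc1 beside the muscle-type channels.

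The promoters of Trpc6 and Trpc1 are shown because these channel genes, both on chromosome 9, were highest in the same class and carry different sequence features. They are RefSeq sequences of GRCm38.p6, from 250 bases before the start of the gene to 50 after it, printed 5′ to 3′ on the strand of the gene. Capitals mark matches, on either strand, to a CArG box, the site bound by serum response factor in many muscle genes, or to a GC box (GGGCGG).
Trpc6, chr9:8543892-8544191, plus strand: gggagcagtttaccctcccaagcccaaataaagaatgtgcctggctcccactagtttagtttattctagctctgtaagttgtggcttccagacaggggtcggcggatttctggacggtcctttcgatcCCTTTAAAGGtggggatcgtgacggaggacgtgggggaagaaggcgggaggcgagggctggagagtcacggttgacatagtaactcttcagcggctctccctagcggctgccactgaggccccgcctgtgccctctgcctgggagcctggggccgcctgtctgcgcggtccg
Trpc1, chr9:95750299-95750598, minus strand: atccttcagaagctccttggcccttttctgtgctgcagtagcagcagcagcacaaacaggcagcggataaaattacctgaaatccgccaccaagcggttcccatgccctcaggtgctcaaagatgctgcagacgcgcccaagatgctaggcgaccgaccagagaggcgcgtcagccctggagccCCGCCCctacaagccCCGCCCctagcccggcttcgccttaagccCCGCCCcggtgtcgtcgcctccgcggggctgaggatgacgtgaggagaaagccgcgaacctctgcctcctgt
The Trpc6 window holds 1 CArG box, which 1.63% of 32851 RefSeq mouse promoters of the same length hold, and no GC box. The Trpc1 window holds 3 GC boxes, a motif found in 35.7% of those promoters, and no CArG box. Their GC contents are 60.0% and 63.0%, against a median of 52.7%, with 17 and 22 CpG dinucleotides. Neither window holds TATAAA or CCAAT, which 13.6% and 37.4% of promoters hold. Cacna1c, the other member highest in pericytes, has RefSeq windows without a CArG box, which are not shown. Among the 8 members matched in RefSeq, the Trpc6 window alone holds one. A match is a description of letters, and no binding was measured here.

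Trpc4 was near the limit of detection. Mesothelial cells held 6 and 50 UMIs in WT mice (3.80 and 12.4 CPM) and 44 and 30 UMIs in Tg mice (8.74 and 3.55 CPM), with the genotypes interleaved. Empty droplets averaged 0.344 CPM, from 11 UMIs in all. No UMI was counted in the pericytes of any mouse, where a count of 0 allows a level of up to 8.26 to 19.6 CPM in a single mouse.

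**Figure D2:**
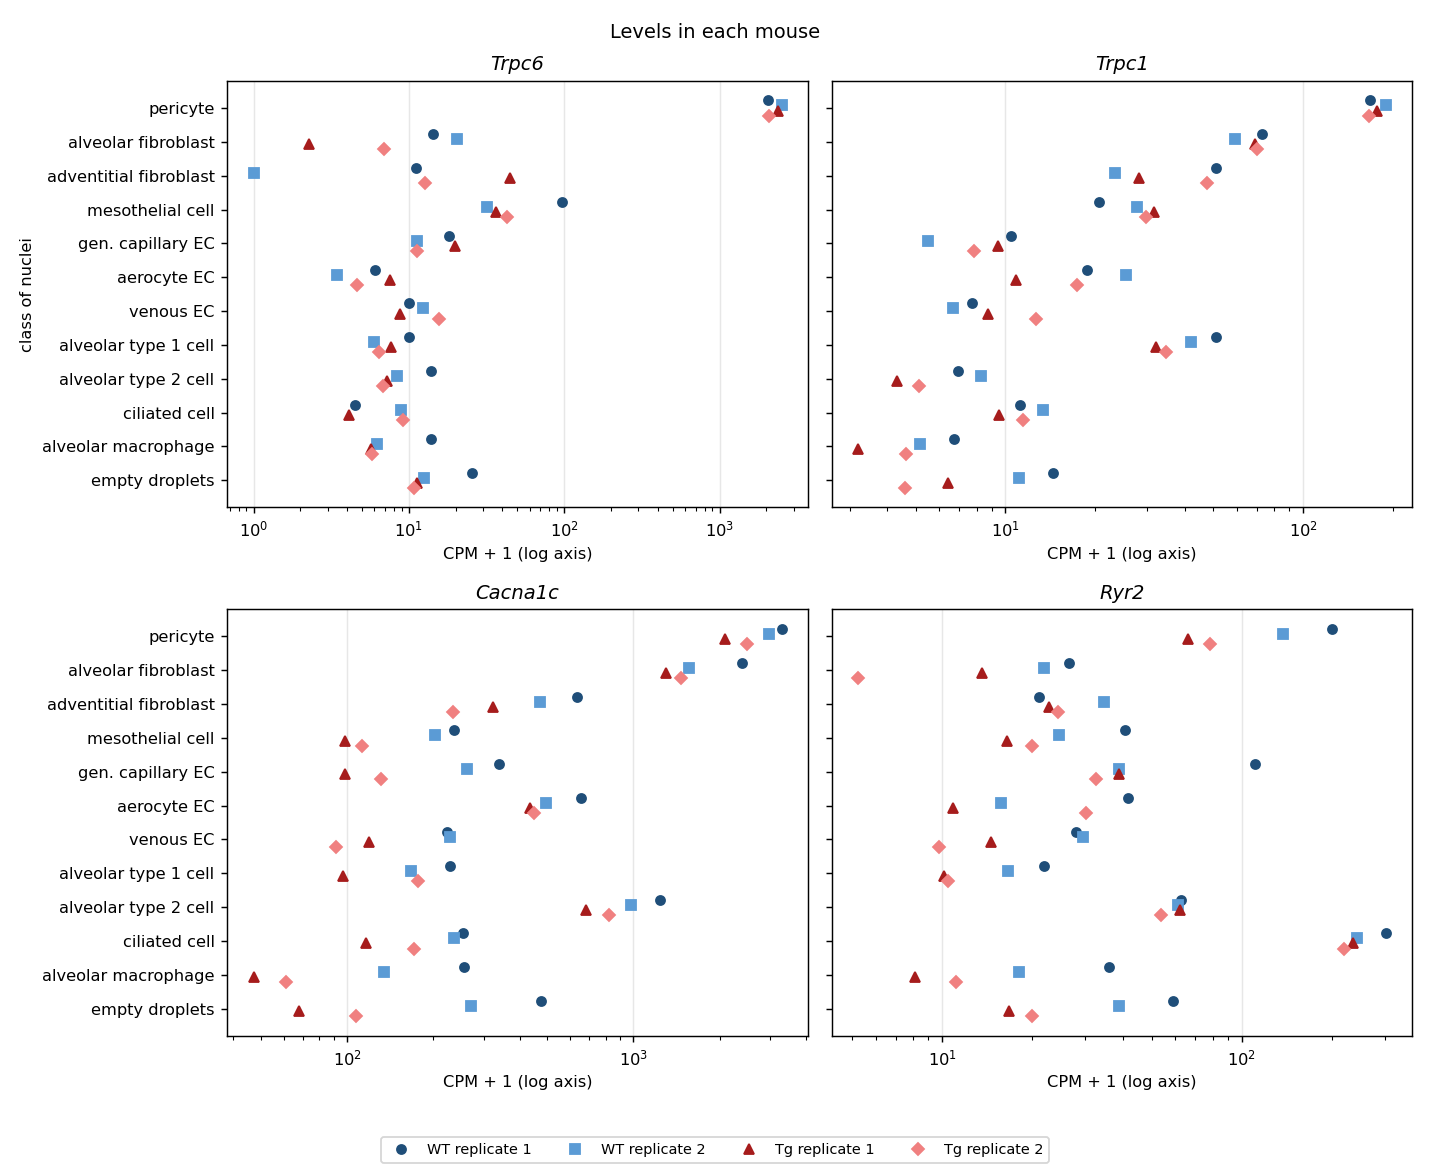
CPM + 1 (horizontal log axis) of Trpc6, Trpc1, Cacna1c and Ryr2 in each of the 4 mice, by class of nuclei (vertical axis), with blue symbols for WT and red symbols for Tg mice. Trpc6 in pericytes lay between 2059 and 2504 CPM in every mouse, and Cacna1c in empty droplets lay at 476 and 270 CPM in WT against 66.7 and 107 CPM in Tg mice.

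Cacna1c, on chromosome 6 at 118587240 to 119196418 of GRCm38, minus strand, was the most abundant member in UMIs. Pericytes held 3287 and 2966 CPM in WT mice and 2091 and 2488 CPM in Tg mice, both WT values above both Tg values. The few smooth muscle nuclei held 1555, 1504, 2622 and 5846 CPM, here with the Tg mice higher. They lay above the pericytes in both Tg mice and below them in both WT mice. Alveolar fibroblasts followed at 2386, 1561, 1301 and 1469 CPM. They lay below the pericytes of the same mouse in every mouse, though the ranges over mice overlapped. Alveolar type 2 cells, which make surfactant, held 1238, 978, 683 and 823 CPM, below every alveolar fibroblast value. Aerocyte ECs held 654, 493, 435 and 450 CPM and stood out among the ECs. General capillary ECs, the other capillary type, held 339, 261, 97.2 and 131 CPM, below the aerocytes in every mouse. Empty droplets held 476, 270, 66.7 and 107 CPM, so 10 of 17 classes had a mean below theirs and 6 lay above them in all 4 mice.

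Ryr2, on chromosome 13 at 11553102 to 12106945, was led by ciliated cells among the classes with enough nuclei. These held 302 and 242 CPM in WT mice and 235 and 218 CPM in Tg mice. Pericytes held 198, 136.5, 65.3 and 77.1 CPM and did not overlap the ciliated cells. Alveolar type 2 cells held 52.7 to 61.8 CPM, with an SD of only 4.22 CPM between mice. The 4 to 9 cardiac muscle nuclei of each mouse, from muscle of the pulmonary vein wall or heart tissue, were far above all of these at 2577, 635, 878 and 589 CPM, from 106 UMIs. Empty droplets held 58.1, 37.9, 15.7 and 19.0 CPM, and 13 of 17 classes had a mean below theirs.

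The mechanically gated members had their highest class means in ECs, Piezo2 in capillary and Piezo1 in venous ones. Piezo2 reached 1325 and 998 CPM in aerocyte ECs of WT mice and 1197 and 1201 CPM in those of Tg mice. General capillary ECs held 486, 361, 493 and 480.5 CPM, 2.59 times less on average and without overlap. Venous ECs averaged 156 CPM and lymphatic ECs 138 CPM, and these overlapped. Empty droplets held 56.5, 44.4, 26.5 and 24.6 CPM, so aerocytes stood 31.1 times above them. The order from aerocyte to general capillary to venous ECs held in each of the 4 mice.

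Piezo1 was spread more evenly. Venous ECs held 186, 222, 245 and 140.5 CPM, 3.04 times the level of empty droplets (47.1, 72.6, 53.8 and 87.7 CPM). Mesothelial cells averaged 139 CPM, general capillary ECs 129 CPM, dendritic cells 123 CPM and alveolar type 1 cells 118 CPM, and each overlapped its neighbour. In Tg replicate 2 mesothelial cells (160.4 CPM) and general capillary ECs (146 CPM) lay above venous ECs. In aerocyte ECs Piezo1 ranged from 35.6 to 109 CPM, so the class with the highest Piezo2 level held Piezo1 at 1.30 times the empty droplets, above them in 2 of 4 mice. Among the 17 classes, 7 lay above empty droplets in all mice.

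Trpv4, a channel that opens endothelial calcium entry on shear, was low throughout. Venous ECs held 38.1 and 34.1 CPM in WT mice and 50.2 and 20.5 CPM in Tg mice, against 9.05 to 14.4 CPM in empty droplets. Arterial ECs, too few for a test with 14 to 99 nuclei, held 46.2 CPM, 0, 74.7 and 55.1 CPM, where the count of 0 in the 14 nuclei of WT replicate 2 allows up to 45.3 CPM. Monocytes or interstitial macrophages averaged 23.5 CPM, aerocyte ECs 20.8 CPM and general capillary ECs 19.2 CPM, and all of these overlapped. In pericytes 3 UMIs were counted in all.

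**Figure D3:**
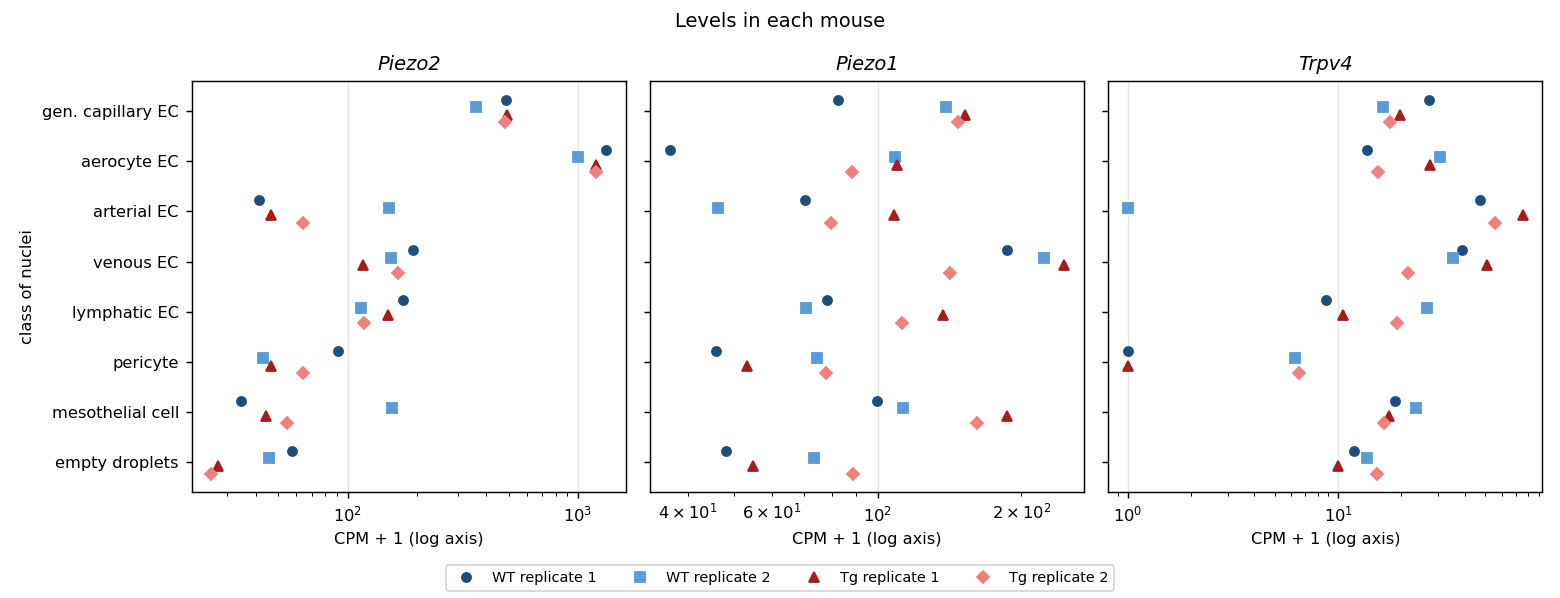
CPM + 1 (horizontal log axis) of Piezo2, Piezo1 and Trpv4 in each of the 4 mice, by class of nuclei (vertical axis), with blue symbols for WT and red symbols for Tg mice. Piezo2 went from aerocyte ECs (998 to 1325 CPM) to general capillary ECs (361 to 493 CPM), while Piezo1 and Trpv4 were highest in venous ECs among the classes that could be tested.

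Stim1, on chromosome 7 at 102267806 to 102437319, was detected broadly. Ciliated cells held 509 and 525.5 CPM in WT mice and 339 and 429 CPM in Tg mice, and T cells held 376, 431, 405.5 and 305 CPM, overlapping them. Alveolar fibroblasts averaged 318 CPM, adventitial fibroblasts 309 CPM and mesothelial cells 272 CPM, again overlapping. Blood vascular ECs held 190, 168, 114.5 and 119 CPM against 209, 192, 71.7 and 98.5 CPM in empty droplets, below them in both WT mice and above them in both Tg mice. The first class exceeded the empty droplets 3.15 times, and 9 of 17 classes lay above them in all mice, the most of any member.

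Levels in CPM are not scaled to gene length. Whether counts from this 3′ kit rise with gene span was not tested, so values per kilobase are a second description. Per kilobase of gene span, since intron reads were counted, the level in the leading class was 16.5 CPM for Trpc6, 4.45 for Cacna1c, 3.85 for Trpc1, 3.13 for Piezo2, 2.85 for Piezo1, 2.66 for Stim1, 0.985 for Trpv4, 0.450 for Ryr2 and 0.0438 CPM per kilobase for Trpc4. On this scale Trpc6 exceeded Cacna1c in pericytes, the reverse of the order in CPM, so their order depends on the scale. Spans ran from 36.3 kilobases for Trpv4 to 609 kilobases for Cacna1c. Several spans overlap other annotated genes, such as the antisense genes Gm32014 at Trpc6, Ctu2 at Piezo1 and Dcp1b at Cacna1c. The sources used here do not state a strand setting, so reads of such pairs are uncertain. Gm32014 itself averaged 42.8 CPM in pericytes.

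Over the class means, the genes most like each member were named by the Pearson correlation of log2(CPM + 1) over the 17 classes, among 13757 genes. Classes share libraries and free RNA, so these correlations are a description. For Trpc6 they were Gm32014 (0.952), Gm21798 (0.943) and Ntm (0.935), which averaged 206 CPM in pericytes. For Trpc1 they were Enox1 (0.909), Prkg1 (0.897), which encodes the cyclic GMP-dependent kinase and averaged 5376 CPM in pericytes, and Lhfp (0.880). For Cacna1c they were Hif3a (0.919), a hypoxia-inducible factor subunit, Rasl12 (0.873) and Col7a1 (0.847). Hif3a and Col7a1 were low in pericytes, at means of 30.6 and 14.7 CPM, with lowest values of 6.39 and 6.53 CPM in a mouse. Each of these 9 genes was highest in pericytes. For Piezo2 they were Ccdc85a (0.949), Klf7 (0.937) and Prx (0.937), and Klf7 and Prx, a periaxin, averaged 893 and 454 CPM in aerocyte ECs. For Ryr2 they were Dnah1 (0.856), an axonemal dynein, Kcnmb2 (0.841) and Slc4a8 (0.841), all highest in ciliated cells. For Trpc4 they were Gm6260 (0.923), Muc16 (0.892), a mesothelial mucin, and Lhfpl3 (0.891). Likeness was lower for Stim1 (Ebpl, 0.849, Gm16201, 0.823, and Ikbke, 0.822), Trpv4 (2900026A02Rik, 0.790, Hs3st1, 0.772, and Rnf141, 0.769) and Piezo1 (Rhoa, 0.773, Spag9, 0.754, and Slk, 0.748).

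The partners of these channels had leading classes of their own. Of 59 listed calcium channel and transport genes, 58 were found, and 8 were highest in alveolar fibroblasts, 6 in adventitial fibroblasts, 5 each in ciliated cells and in monocytes or interstitial macrophages, 4 each in B cells, dendritic cells and venous ECs, and 3 or fewer in any other class. Of the 6 in adventitial fibroblasts, 4 had no UMI there in 2 or more mice. Cacnb2, a cytosolic subunit of the L-type channel, held 2173, 2029, 1645 and 1852 CPM in alveolar fibroblasts, the class second to pericytes in Cacna1c, against 34.0 to 161 CPM in empty droplets. Of the listed TRP genes, which leave out the 9 members, Trpm6, a magnesium and calcium channel, had the highest class mean in CPM, not scaled to length, at 512 CPM in alveolar type 2 cells. Stim2, the other store sensor, averaged 341 CPM in venous ECs. Itpr1, the inositol trisphosphate receptor, averaged 724 CPM in dendritic cells. Slc8a1, the sodium-calcium exchanger, averaged 1429 CPM in monocytes or interstitial macrophages, and Kcnk2, a stretch-activated potassium channel, 962 CPM in club cells, the secretory cells of the airway.

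Genotypes were compared in each class on the UMIs summed per mouse with edgeR's quasi-likelihood test, calling a gene at a Benjamini-Hochberg adjusted p under 0.05 over all genes tested. The 9 members gave 113 tests in the 17 classes after the filter on low counts, and 14 passed, all lower in Tg mice. That is 12.4% of the member tests, against 9.53% of the tests of all genes in these classes. The 9.53%, like the shares by class below, counts both directions. In every class more genes were called higher in Tg mice than lower, such as 1179 against 149 in alveolar type 1 cells. The share of all genes called lower alone is thus smaller than the share printed. By class it ran from 2 of 2464 genes in adventitial fibroblasts to 473 of 12081 in general capillary ECs. Of the calls, 10 were Cacna1c, 3 Stim1 and 1 Ryr2. DESeq2 called 11 of the 113, of which 9 were among the 14 and the other 2 were Ryr2 in club cells and alveolar macrophages. The 5 that DESeq2 did not call were Cacna1c in venous ECs, lymphatic ECs and dendritic cells, Stim1 in general capillary ECs and Ryr2 in T cells. No test of Trpc1, Trpc4, Trpc6, Trpv4, Piezo1 or Piezo2 passed. With 2 mice of each genotype, a p-value sets the difference against a spread between mice estimated partly from other genes. A test that did not pass does not show that levels were alike.

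The same 3 genes differed between genotypes in empty droplets. In droplets that hold no nucleus, Cacna1c stood at 476 and 270 CPM in WT mice and 66.7 and 107 CPM in Tg mice, and the genotypes did not overlap. Its log2 difference, Tg over WT, was -1.90 ± 0.36 (SE, edgeR adjusted p = 0.0204). Stim1 stood at 209 and 192 CPM against 71.7 and 98.5 CPM, a log2 difference of -1.02 ± 0.23 (edgeR adjusted p = 0.026). Ryr2 stood at 58.1 and 37.9 CPM against 15.7 and 19.0 CPM, a log2 difference of -1.23 ± 0.30 (edgeR adjusted p = 0.0306). These 3 of 8 tested members passed in a comparison that called 25.6% of 15180 genes, and they were the 3 genes called in nuclei. Markers of alveolar type 2 cells moved the other way in free RNA, the 8 summing to 5433 and 7262 CPM in WT empty droplets and to 20400 and 19060 CPM in Tg ones. The part of free RNA in the differences below was not tested beyond the subtraction given after them.

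In ECs, which carry the transgene, the called members were Cacna1c and Stim1. Cacna1c in general capillary ECs fell from 339 and 261 CPM in WT mice to 97.2 and 131 CPM in Tg mice, a log2 difference of -1.37 ± 0.22 (edgeR adjusted p = 0.00987). Stim1 fell there from 185 and 167 CPM to 102 and 114 CPM, by 0.67 on the log2 scale (edgeR adjusted p = 0.0451). These 2 of 8 tested members stand beside 12.8% of all genes called in general capillary ECs. In venous ECs Cacna1c fell from 222 and 228 CPM to 118 and 90.7 CPM (log2 difference -0.97, edgeR adjusted p = 0.0395), 1 of 6 members where 9.59% of genes were called. In lymphatic ECs it fell from 315 and 277 CPM to 124 and 121 CPM (log2 difference -1.18, edgeR adjusted p = 0.0109), 1 of 4 members where 6.67% of genes were called. DESeq2 called no member in venous or lymphatic ECs. In each of these classes the WT and Tg values of the called member did not overlap. The mean Cacna1c level was below that of empty droplets, but mouse by mouse it lay above them in 2 of 4 mice in general capillary ECs, 1 of 4 in venous ECs and 3 of 4 in lymphatic ECs.

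In aerocyte ECs no member passed. Cacna1c stood there at 654 and 493 CPM in WT mice and 435 and 450 CPM in Tg mice, which did not overlap, 2.21 times the empty droplets on average. Its log2 difference was -0.23 ± 0.24. That of Stim1 was -0.64 ± 0.26, close to its called value in general capillary ECs, and the classes were not tested against each other. Piezo2 in aerocytes gave a log2 difference of 0.19 ± 0.25, with WT mice at both ends of the range. With edgeR 0 of 6 tested members were called in aerocytes, 1 at an unadjusted p under 0.05 and 0 by DESeq2, where 9.17% of genes were called. Of all genes there, 1758 of 7076 had an unadjusted p under 0.05. Over all blood vascular ECs joined, Cacna1c was the 1 call among 8 members (362 and 303 CPM in WT mice, 135 and 177 CPM in Tg mice, log2 difference -1.08 ± 0.20, edgeR adjusted p = 0.0174), beside 13.5% of all genes. Without Tg replicate 1 or without Tg replicate 2 no member was called there, and without WT replicate 2 there were 3, where 2, 679 and 3103 of all genes were called in the same order.

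In mural and mesenchymal classes no member was called. The log2 difference in pericytes was 0.16 ± 0.29 for Trpc6, 0.10 ± 0.31 for Trpc1, -0.26 ± 0.28 for Cacna1c and -1.02 ± 0.37 for Ryr2, whose WT values (198 and 136.5 CPM) lay above both Tg values (65.3 and 77.1 CPM). For pericytes edgeR called 0 of 7 members, 1 at an unadjusted p under 0.05 and 0 by DESeq2, where 6.3% of genes were called and 708 of 4095 had an unadjusted p under 0.05. In alveolar fibroblasts 0 of 7 were called by edgeR, 2 at an unadjusted p under 0.05 and 0 by DESeq2, where 10.3% of genes were called and 2937 of 10718 had an unadjusted p under 0.05. Adventitial fibroblasts gave 0 of 2 by edgeR, also 0 at an unadjusted p under 0.05 and 0 by DESeq2, in a class of 23 to 72 nuclei. In that class 3.69% of genes were called and 354 of 2464 had an unadjusted p under 0.05. Mesothelial cells differed, with Cacna1c at 236 and 202 CPM in WT mice and 97.3 and 112 CPM in Tg mice (log2 difference -1.05, edgeR adjusted p = 0.0252). That was 1 of 9 members, where 8.32% of genes were called, at a level above empty droplets in both Tg mice and below them in both WT mice. Most mesothelial nuclei came from clusters led by Nxph1 or Il1rapl1 in WT mice and by Wdr17 in Tg mice.

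In epithelium Stim1 and Cacna1c were the called members. Stim1 in alveolar type 2 cells stood at 194 and 209 CPM in WT mice and 117 and 144.5 CPM in Tg mice (log2 difference -0.59, edgeR adjusted p = 0.0471), 1 of 8 members where 13.7% of genes were called. Club cells held Stim1 at 234 and 236 CPM against 135 and 157 CPM (log2 difference -0.70, edgeR adjusted p = 0.0301). Cacna1c stood in club cells at 691 and 379 CPM against 178 and 253 CPM (log2 difference -1.34, edgeR adjusted p = 0.0472). These were 2 of 8 members where 12.8% of genes were called in club cells, and in both classes the genotypes did not overlap. The clusters behind them differed between genotypes, led by Slc26a4 or Acoxl in WT and by Sftpc or Sgpp2 in Tg type 2 cells, and by Nwd2 in WT and Gm15883 in Tg club cells. Of 7 club markers, 3 exceeded empty droplets in all mice, and their sum of 10600 to 52390 CPM in these nuclei lay below that of empty droplets in every mouse (17850 to 136000 CPM). The 8 markers of alveolar type 2 cells summed in those cells to 8233 and 9042 CPM in WT mice, above their empty droplets, and to 15960 and 14610 CPM in Tg mice, below theirs.

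Cacna1c in alveolar type 2 cells, at 4.05 times the empty droplets, gave a log2 difference of -0.52 ± 0.19, which did not pass. Ryr2 in the same cells gave -0.06 ± 0.16. In alveolar type 1 cells edgeR called 0 of 8 members, 4 at an unadjusted p under 0.05 and 0 by DESeq2, where 9.08% of genes were called. Of all genes there, 4384 of 14618 had an unadjusted p under 0.05. In ciliated cells edgeR called 0 of 8, 1 at an unadjusted p under 0.05 and 0 by DESeq2, where 3.5% of genes were called and 3127 of 14712 had an unadjusted p under 0.05. Ciliated Stim1 and Ryr2, each the highest of its gene among tested classes, gave log2 differences of -0.47 ± 0.21 and -0.31 ± 0.22.

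Immune nuclei repeated the Cacna1c difference at low levels. Alveolar macrophages held 254 and 133 CPM in WT mice and 46.1 and 60.0 CPM in Tg mice (log2 difference -1.86, edgeR adjusted p = 0.0299), 1 of 8 members where 11.2% of genes were called. Monocytes or interstitial macrophages held 294 and 166 CPM against 57.8 and 72.1 CPM (log2 difference -1.78, edgeR adjusted p = 0.0133), 1 of 6 where 8.16% were called. Both macrophage classes lay below the empty droplets in all 4 mice, and most alveolar macrophages came from a cluster led by Ms4a8a in WT replicate 1 and from one led by Htr2c in the other mice. Dendritic cells held 365 and 254 CPM against 158 and 143 CPM (log2 difference -0.98, edgeR adjusted p = 0.0139), 1 of 5 where 7.81% were called. B cells held 371 and 228 CPM against 74.3 and 109 CPM (log2 difference -1.60, edgeR adjusted p = 0.00652), 1 of 6 where 10.4% were called. T cells held Cacna1c at 369 and 241 CPM against 83.8 and 135 CPM (log2 difference -1.41, edgeR adjusted p = 0.028). Ryr2 in T cells stood at 40.3 and 33.2 CPM against 13.7 and 16.4 CPM (log2 difference -1.21, edgeR adjusted p = 0.0447), below empty droplets in every mouse. These 2 of 7 members stand beside 9.09% of genes called in T cells.

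The size of the Cacna1c difference varied with the level over free RNA. In the 6 classes above empty droplets in every mouse, the log2 difference ran from -1.34 to -0.23 with a median of -0.49, and 1 was called. In the other 11 classes it ran from -1.86 to -0.56 with a median of -1.18, and 9 were called. The classes with the highest Cacna1c level, pericytes and alveolar fibroblasts, showed differences of -0.26 and -0.46. The split uses the same counts as the difference, so it is a description. The medians of Ryr2 were -0.66 in the 4 classes above empty droplets and -1.11 in the 11 others tested, those of Piezo2 were 0.12 in 5 and -0.59 in 11, and those of Stim1 were -0.51 in 9 and -0.55 in 8.

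**Figure D4:**
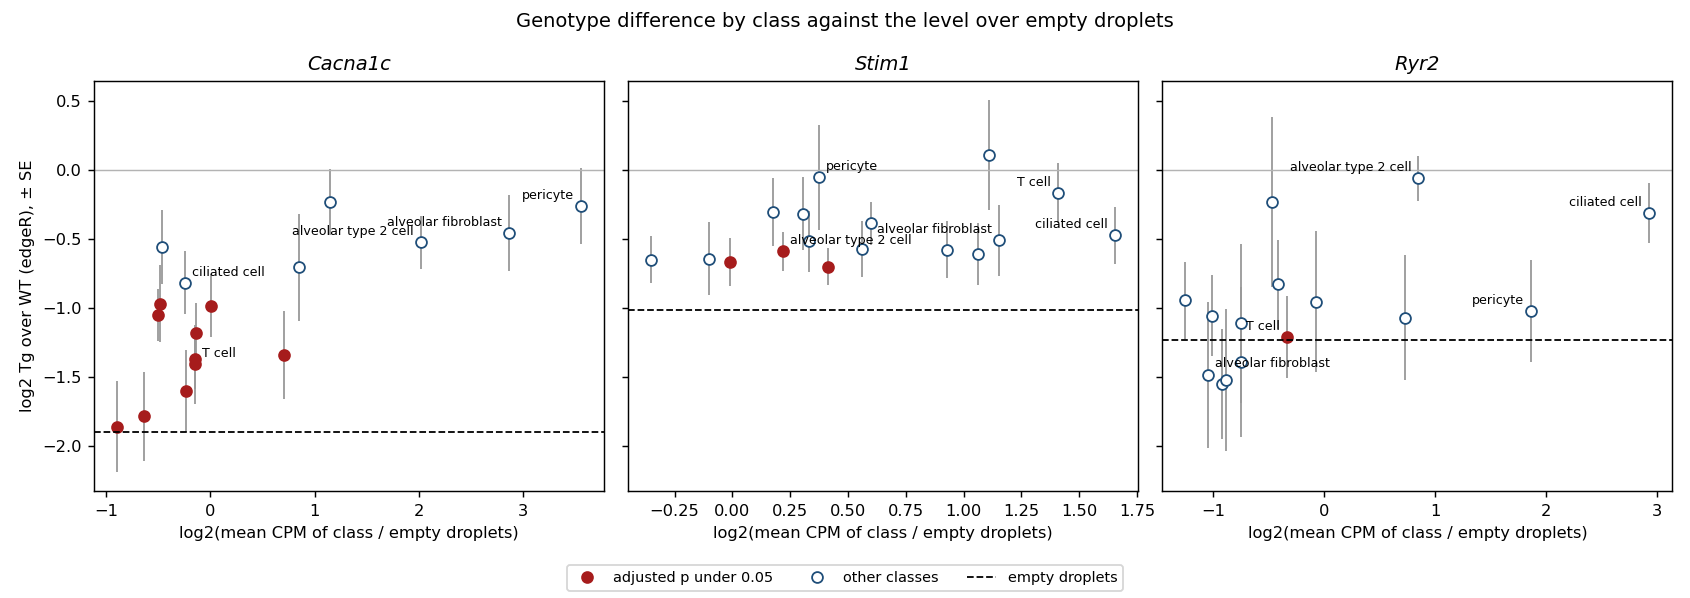
Log2 difference of Tg over WT mice with its SE (vertical axis, edgeR) against the log2 ratio of the class mean to empty droplets (horizontal axis) for Cacna1c, Stim1 and Ryr2, with a point for each tested class and a dashed line at the difference in empty droplets. The Cacna1c differences nearest to that of empty droplets (-1.90) belong to macrophages, B cells, T cells and general capillary ECs, all below a ratio of 1, followed by club cells (-1.34), above it, and pericytes lie at -0.26.

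When the profile of empty droplets was subtracted from each class by its estimated share, edgeR called 0 of the 90 member tests that remained, with 13 at an unadjusted p under 0.05. The share of all genes under that unadjusted threshold ran from 37 of 1281 in adventitial fibroblasts to 2335 of 12347 in alveolar type 1 cells. At the adjusted threshold the share of all gene tests called in these classes was then 0.156%, against 9.53% before. DESeq2 was not run on the subtracted counts. The median log2 difference of Cacna1c over 17 classes went from -0.98 to -0.54 and was below 0 in 14 of them. That of Stim1 went from -0.52 to -0.33, below 0 in 13 of 17. That of Ryr2 went from -1.05 over 15 classes to -0.37 over the 8 that could still be tested. Cacna1c turned to 0.55 ± 1.2 in venous ECs, 0.30 ± 0.26 in alveolar type 1 cells and 0.07 ± 0.20 in aerocyte ECs (SE). In general capillary ECs it was -0.71 ± 0.21 and in club cells -1.19 ± 0.33. With 1 mouse left out in turn, the count of 14 became 9 without WT replicate 1, 28 without WT replicate 2, 5 without Tg replicate 1 and 6 without Tg replicate 2. The calls over all genes went with them, at 7.53%, 14.0%, 1.78% and 6.03% of tests in the same order. In all 4 of these fits 4 calls held, Cacna1c in general capillary ECs, lymphatic ECs, monocytes or interstitial macrophages and B cells, of which DESeq2 did not call that in lymphatic ECs. The 3 Stim1 calls held in none of them, with log2 differences that stayed between -0.77 and -0.49.

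**Figure D5:**
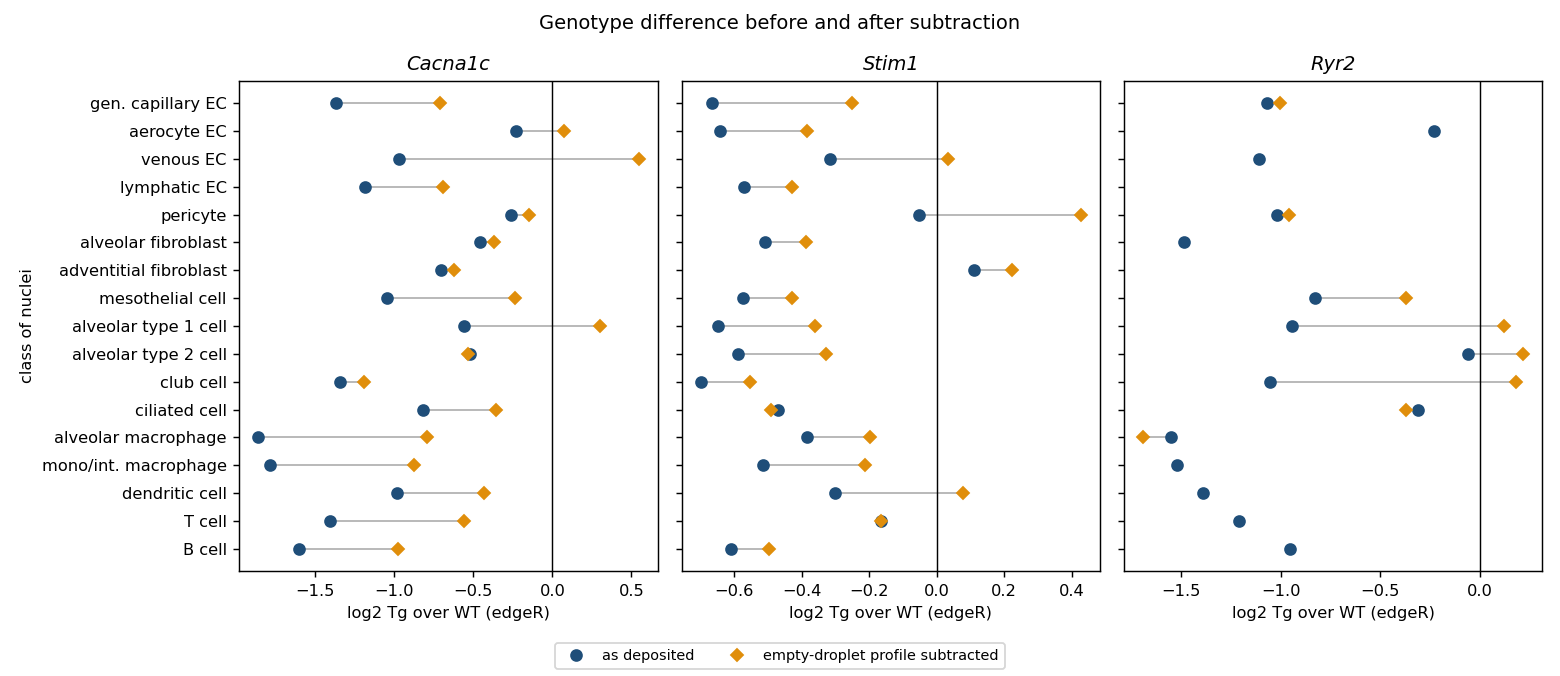
Log2 difference of Tg over WT mice (horizontal axis, edgeR) for Cacna1c, Stim1 and Ryr2 in each tested class (vertical axis), as deposited (circles) and after subtraction of the empty-droplet profile (diamonds). Most Cacna1c differences moved toward 0, from a median of -0.98 to -0.54, and those of venous ECs, alveolar type 1 cells and aerocyte ECs crossed it.

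Piezo1 gave values above 0. Its log2 difference was above 0 in 16 of 16 tested classes, from 0.08 to 0.83 with a median of 0.36, and none was called. The classes come from the same mice and share free RNA, so they are not 16 separate results. After subtraction it was below 0 in 2 of 15 classes. In mesothelial cells it stood at 98.8 and 112 CPM in WT mice and 185 and 160 CPM in Tg mice, which did not overlap, with a log2 difference of 0.73 ± 0.19 (edgeR adjusted p = 0.0567). In empty droplets its difference was 0.44 ± 0.29, with the genotypes overlapping. Values below 0 were given by Piezo2 in 12 of 16 classes with a median of -0.28, by Trpc6 in 9 of 11 with a median of -0.66, by Trpc1 in 6 of 10 with a median of -0.24 and by Trpv4 in 4 of 10 with a median of 0.06. After subtraction, over the classes that could still be tested, these medians were 0.35 for Piezo2, with 2 of 12 below 0, 0.14 for Trpc6, with 2 of 6, 0.22 for Trpc1, with 2 of 7, and 0.18 for Trpv4, with 2 of 7. The median over all genes tested in a class lay between -0.02 and 0.04.

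Among the listed pathway genes, 31 of 563 tests in the 17 classes were called, all lower in Tg mice. That is 5.51% of the list's tests, against 9.53% of the tests of all genes in these classes. The 9.53% counts both directions, with more genes called higher than lower in every class. It is therefore not a share of genes called lower. By class, genes called lower ran from 2 of 2464 in adventitial fibroblasts to 473 of 12081 in general capillary ECs. These are smaller shares than the 5.51% of the list. Whether the list differs from all genes in that direction was not tested. Trpm6 fell in general capillary ECs from 209 and 150.5 CPM to 50.1 and 92.5 CPM (log2 difference -1.30, edgeR adjusted p = 0.0274), and likewise in aerocyte and venous ECs, alveolar fibroblasts and B cells. DESeq2 called no listed gene in aerocyte or venous ECs. Of the L-type channel's other subunits, Cacnb2 was called in 4 classes and Cacna2d1 in 5, both in general capillary ECs, T cells, monocytes or interstitial macrophages and alveolar type 2 cells. Cacna1c itself did not pass in alveolar type 2 cells. Neither was called in 6 of the 10 classes where Cacna1c was. In general capillary ECs Cacna2d1, a subunit that carries the channel to the surface, stood at 69.3 and 95.8 CPM against 34.4 and 45.2 CPM (log2 difference -1.01, edgeR adjusted p = 0.031). Itpr1 fell there by 0.69 and Atp2b2, a calcium pump of the plasma membrane, by 2.05 on the log2 scale. Slc8a1 fell in alveolar type 2, club, T and B cells, Atp2a3, a pump of the endoplasmic reticulum, in 5 classes, Cacna1e in alveolar type 1 cells, Stim2 in alveolar type 2 cells and Kcnk2 in mesothelial cells. In the joined ECs 4 of 40 were called, beside 13.5% of all genes, Cacnb2, Cacna2d1 and Trpm6 lower and Pln, an inhibitor of the calcium pump of muscle stores, higher from 1.85 and 0.454 CPM to 8.98 and 6.24 CPM (log2 difference 2.61, edgeR adjusted p = 0.0368). In the empty droplets 14 of 43 were called, beside 25.6% of all genes, 11 lower and 3 higher (Orai3, Saraf and Cacnb3), and every listed gene called in 1 of the 17 classes, apart from Kcnk2, was among those 11, while Pln was not called there. After subtraction edgeR called 0 of 472 tests of this list in the 17 classes, beside the same 0.156% of all gene tests. In the joined ECs it then called 0 of 10001 genes, so the calls there, that of Pln among them, did not hold.

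The last comparison asked whether the genotype difference itself differed between blood vascular ECs and the other classes joined. These other classes included lymphatic ECs. The make-up of both sums differed between libraries. Mesothelial nuclei were 367 of 9375 and 906 of 11043 in WT against 1610 of 16761 and 2347 of 22483 in Tg mice. Arterial ECs were 31 of 908 and 14 of 647 against 99 of 1156 and 37 of 1243. The part of make-up in the joined differences was not tested. Piezo2 was the 1 member of 9 called, beside 0.643% of 18516 genes. It stood at 530 and 456 CPM in ECs of WT mice and 450.2 and 550.3 CPM in those of Tg mice, which overlapped. In the other classes it stood at 29.6 and 34.3 CPM in WT mice and 20.2 and 24.0 CPM in Tg mice, which did not overlap and lay below their own empty droplets. The difference of the differences was 0.66 on the log2 scale (edgeR adjusted p = 0.042), and it was -0.0039 after subtraction. Without WT replicate 2 it was 0.47 and was not called. The differences of Cacna1c and Stim1 were not called as different between ECs and the rest.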

How the data were processed

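Lung nuclei of 2 WT and 2 Tg mice were profiled with a 10x single-cell 3′ kit, and groups were taken from the sample labels. The deposited values are raw UMI counts per gene and barcode, unfiltered, which the authors made with Cell Ranger 6.1.1 on mm10 (GRCm38), counting introns. The authors' later removal of free RNA, doublets and low-quality nuclei is not in these counts.

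The members and gene lists were chosen with earlier results of these data known. Barcodes with at least 1500 UMIs and at most 5% mitochondrial UMIs were assigned by markers, then by whole profile with a free-RNA share (Python 3.11.15, NumPy 2.4.6, SciPy 1.17.1), giving 63 clusters and 22 named classes. A cluster was named from at least 3 detected markers. Nuclei with markers of another lineage (Poisson p under 1e-04) were left out as mixed, 265 to 1123 per library, and no other doublet caller was run. Where a count is 0, the level allowed is that of 3 UMIs, for counting error only.

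UMIs were summed per mouse and class, and classes with at least 20 nuclei in every mouse were fitted with edgeR 4.0.16 (quasi-likelihood, TMM, filterByExpr with a minimum count of 10, R 4.3.3), two-sided, with Benjamini-Hochberg adjustment over all genes. The interaction fit had a term for each mouse. Alternatives were DESeq2 1.42.0, no scaling, no filter, a block by replicate number, leaving out 1 mouse at a time, subtraction of the empty-droplet profile, at least 2500 UMIs, mixed nuclei kept, and nuclei assigned by markers alone. Named were the 9 members in every class, listed pathway genes past the threshold or with the highest class level of their group, and for each member the 3 genes most correlated over class means among those reaching 10 CPM in a class. Promoters came from RefSeq (8 of 9 members matched) and gene spans from the GRCm38 annotation.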

Additional observations from a re-analysis of the deposited data

Results flagged for a closer look

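For 3 genes the genotype difference in blood vascular ECs differed from that in the other classes joined, by an interaction term in edgeR. That of Piezo2 was 0.66 on the log2 scale (edgeR adjusted p = 0.0423). Piezo2 stood at 530 and 456 CPM in WT and 450.2 and 550.3 CPM in Tg ECs, at 29.6 and 34.3 CPM against 20.2 and 24.0 CPM in the other classes, and at 56.5 and 44.4 CPM against 26.5 and 24.6 CPM in empty droplets. The other classes thus lay below the empty droplets of their own mouse and differed in the same direction as them. Atp2a3 gave 1.14 (edgeR adjusted p = 0.0356), with 84.8 and 75.7 CPM against 96.6 and 67.2 CPM in ECs, 40.9 and 40.6 CPM against 17.5 and 22.6 CPM elsewhere, and 67.8 and 75.3 CPM against 27.4 and 38.0 CPM in empty droplets. Trpm6 gave -0.70 (edgeR adjusted p = 0.0491), with 198 and 151.5 CPM against 47.8 and 86.2 CPM in ECs, 445 and 318 CPM against 214 and 290 CPM elsewhere, and 362 and 242 CPM against 70.3 and 152 CPM in empty droplets. The part of free RNA in these differences was not tested beyond the subtraction, after which none of the 3 was called. That of the make-up of the joined classes was not tested. With a mouse left out, the call of Piezo2 was lost without WT replicate 2 (0.47), that of Atp2a3 without WT replicate 1 (1.16) and that of Trpm6 without WT replicate 1 (-0.81) or Tg replicate 1 (-0.49).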

How the results depend on the processing

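Of the 113 member tests in 17 classes 14 were called, and 0 after subtraction of the empty-droplet profile, 4 with at least 2500 UMIs, 5 with nuclei assigned by markers alone (77 tests in 15 classes), and 5 to 28 with a mouse left out. All gene tests in these classes were called at 9.53%, and in the same order at 0.156%, 7.04%, 7.04% and 1.78% to 14.0%. The other alternatives gave 10 (mixed nuclei kept) to 20 (replicate block). In joined ECs the 1 call became 3 with the replicate block, 0 after subtraction and 0 to 3 with a mouse left out. In empty droplets 3 became 0 to 4 with a mouse left out, and the difference between ECs and other classes went from 1 to 0 after subtraction, 0 with at least 2500 UMIs and 1 to 3 with a mouse left out. Of called differences, signs turned for Cacna1c in venous ECs (0.55 ± 1.2, SE) and Piezo2 between ECs and other classes (-0.0039 ± 0.44) after subtraction, and for Kcnk2 in mesothelial cells (0.32) with mixed nuclei kept. Called or not, 22 of the 90 member differences that remained changed sign after subtraction, 6 of them of Piezo2. The cause was not tested.

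Replicate numbers give only 2 pairs, whose deviations correlated at -0.0625 to 0.256 over classes, so the block is not taken as a pairing. A second choice of empty droplets, barcodes with 100 to just under 300 UMIs, held 18999 to 20456 UMIs per mouse, too few to give a member's value. The leading class held for all 9 members with at least 2500 UMIs, for 8 after subtraction (Stim1 moved to T cells), where the leading levels of 8 of 9 moved beyond the spread between mice, such as Trpc6 from 2252 to 4106, Cacna1c from 2708 to 4744, Piezo2 from 1180 to 2036, Trpc1 from 174 to 312.5 and Trpc4 from 7.11 to 11.2 CPM, and for 8 by markers alone (Trpv4 moved to monocytes or interstitial macrophages).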
